A study of Mus musculus with 32 samples.

Results

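The gastrocnemius (GAS), the large muscle of the calf, was compared 1 d after section of its nerve with muscle labelled 0 d. The comparison took the 4 samples of 1 d against the 4 of 0 d, which were 8 of the 32 samples of the series, and every gene with at least 0.1 FPKM in at least 4 of the 8. That rule kept 17344 of the 33397 genes of the table. FPKM counts the sequenced fragments of a gene per kilobase of exon, scaled to the depth of the sample. The mice were C57BL/6 by the labels and C57BL/6J by the methods, which describe males aged 6 to 8 weeks whose sciatic nerve was sectioned on the left. The labels give sciatic nerve transection as the treatment of all 32 samples, 0 d included, while the methods describe sham surgery for controls, so the groups are called 0 d and 1 d here. Neither the labels nor the methods give the hour of day at which muscles were taken. Column names in the table carry the time point without saying which individual sample they hold, and the study calls its samples biologically independent. Samples are called 1 to 4 at 0 d and a to d at 1 d, after the columns.

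A muscle fibre depends on its nerve for electrical activity and for signals that hold the acetylcholine receptors, which take up the transmitter, at the neuromuscular junction. When the nerve is lost, fibres are known to induce myogenin and other myogenic factors, spread receptors along the membrane and break down their proteins through ubiquitin ligases, the proteasome and autophagy. Injured tissue is also entered by neutrophils and then by monocytes, which are drawn by chemokines.

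The tissue label was checked first, since the extraction protocol in the labels speaks of retinas. The 10 skeletal muscle markers summed to 40727 to 43707 FPKM at 0 d and 34532 to 39270 FPKM at 1 d. Of 13 retina markers, 2 passed the filter, Nrl and Rlbp1 were listed at 0, and the sum lay between 3.70 and 5.19 FPKM in all 8 samples. The samples held 14199902 to 16511953 fragments, and Pearson's r across genes was 0.981 to 0.991 between samples of a group and 0.954 to 0.970 between the groups. The first principal component separated 0 d from 1 d and held 63.6% of the variance. On the second (11.5%), samples d and b of 1 d lay at opposite ends.

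At 1 d, 1394 genes were called higher (8.04% of those tested) and 546 lower (3.15%), by limma on log2(FPKM + 1), with a change of at least 1.5-fold and p under 0.05 after Benjamini-Hochberg adjustment. Across the 11478 genes that averaged at least 1 FPKM, the median change was 0.12 on the log2 scale, and it was 0.01 after each sample was divided by its median ratio to the gene-wise geometric mean. With that scaling, the split of 71.9% higher among called genes became 52.8%, with 936 higher and 838 lower. Genes called in the same direction in both fits numbered 936 higher (5.40%) and 546 lower (3.15%), and no gene was called in opposite directions. Counts in the lists below stand beside these shares of all genes tested. "Rose" and "fell" below are used for those genes alone. The 8 values did not overlap between the groups for 6139 genes (35.4%), among them 918 of the 936 and 523 of the 546. Fold changes are log2 differences of 1 d minus 0 d on the log2(FPKM + 1) scale with their standard error (SE), a scale that understates the change of genes with low FPKM. In bulk tissue, more cells of a type and more RNA per cell cannot be told apart.

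Among genes that rose with no overlap between the groups and a mean of at least 1 FPKM at 1 d, the largest rise was that of Lcn2, which encodes the iron-carrier-binding acute phase protein lipocalin 2 (ENSMUSG00000026822, GRCm38 chr2:32384633-32388252). Lcn2 read 0.272, 0.128, 0.350 and 0.432 FPKM at 0 d and 50.9, 42.2, 39.1 and 34.1 FPKM at 1 d, with a log2 fold change of 5.03, SE 0.12, adjusted p = 2.69e-08. Its lowest sample at 1 d was 34.1 FPKM and its highest at 0 d was 0.432 FPKM, so the groups lay far apart. Serpina3n, a secreted protease inhibitor of the acute phase (chr12:104406729-104414329), went from 6.76, 3.28, 3.14 and 2.75 FPKM to 99.3, 72.0, 118 and 167 FPKM, with a log2 fold change of 4.53, SE 0.28, adjusted p = 3.93e-06. Mt1, the metal-binding protein metallothionein 1, read 8.02, 6.99, 9.41 and 7.94 FPKM at 0 d and 199.6, 104, 174 and 214 FPKM at 1 d (log2 fold change 4.21, SE 0.20, adjusted p = 1.03e-06). Srxn1, which repairs oxidized peroxiredoxins, read 12.3, 12.2, 12.2 and 11.1 FPKM and then 197, 183, 151 and 152 FPKM (log2 fold change 3.72, SE 0.09, adjusted p = 2.69e-08). Every 1 d sample of these genes stood far above every 0 d sample, and the order of the 1 d samples was not shared, with Lcn2 and Srxn1 highest in sample a and Serpina3n and Mt1 in sample d. The remaining 8 of the 12 largest rises were those of Ccl7, S100a9, Timp1, Trim63, Gadd45a, Junb, Btg2 and Myog, with log2 fold changes from 3.15 (Myog) to 3.60 (Ccl7). They held a chemokine, a neutrophil protein, a protease inhibitor, a ubiquitin ligase, regulators of growth arrest, a subunit of the transcription factor AP-1 and myogenin.

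The largest falls by the same rule began with a protease, a kinase and a membrane pump subunit. Ky, which encodes kyphoscoliosis peptidase of the muscle Z-disc (ENSMUSG00000035606, chr9:102505750-102546239), read 47.8, 46.1, 72.7 and 63.7 FPKM at 0 d and 9.02, 9.54, 8.28 and 5.93 FPKM at 1 d (log2 fold change -2.66, SE 0.17, adjusted p = 4.92e-06). Mylk4, a myosin light chain kinase family member, went from 230.3, 231, 333 and 336 FPKM to 45.3, 47.4, 37.0 and 51.0 FPKM (log2 fold change -2.60, SE 0.15, adjusted p = 3.01e-06). Atp1b1, the beta 1 subunit of the sodium-potassium pump, read 74.6, 91.9, 64.0 and 52.5 FPKM and then 9.83, 10.97, 12.1 and 14.3 FPKM (log2 fold change -2.47, SE 0.16, adjusted p = 6e-06). In all 3 genes the highest 1 d sample lay below the lowest 0 d sample by a wide margin. The others among the 12 largest falls were Gm5532, Csrp3, Smco1, Sec14l5, Perm1, Sema6c, 9430073C21Rik, Nmrk2 and Plcd4, with log2 fold changes from -2.40 (Gm5532) to -2.13 (Plcd4). Csrp3, the muscle LIM protein, was also the most variable of them at 0 d, at 50.5, 66.3, 22.3 and 25.6 FPKM, against 5.56, 5.04, 5.37 and 10.9 FPKM at 1 d. 9430073C21Rik lies on the other strand from Myh2, which also fell, and shares 237 of its 2173 exon bases with it. Of the 24 genes with the largest changes, 6 (Gadd45a, Junb, Atp1b1, 9430073C21Rik, Nmrk2 and Plcd4) share exon bases with a gene on the other strand, as do 56 of the 210 genes of the naming rule, and the strandedness of counting was not given in the sources used here, so reads of such pairs cannot be told apart.

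**Figure D1:**
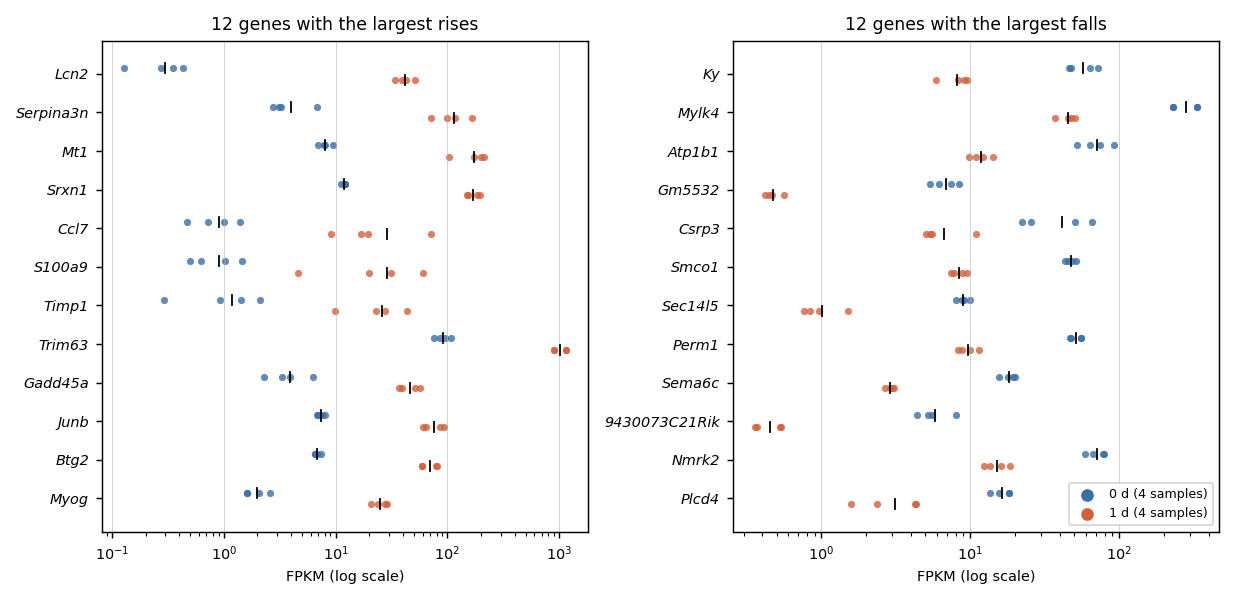
FPKM on a log axis of the 12 genes with the largest rises (left) and the 12 with the largest falls (right), 1 point per sample, 4 samples a group, with the group mean as a black tick. No gene shows overlap between 0 d and 1 d, which the choice of these genes required, and Ccl7, S100a9 and Timp1 have the widest spread at 1 d.

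Promoter sequence was taken from the RefSeq table for GRCm38.p6, whose windows run from 250 bases before a gene's start to 50 bases after it. Of the genes that rose, 694 of 936 had a window, and of those that fell, 378 of 546. The stretches below belong to genes on which the results turn and were picked because a searched motif lies in them, so they are illustrations. Distances are counted from the RefSeq start. The GENCODE genes, whose coordinates are given elsewhere in the text, begin 513 (Lcn2), 681 (Socs3) and 138 (Bhlhe41) bases further upstream at their outermost transcript, so the stretches of Lcn2 and Socs3 lie within the GENCODE gene, that of Bhlhe41 lies partly so, and for Srxn1, Trim63 and Musk the starts differ by at most 8 bases. Capitals mark the matches, and none of them overlapped a match to another motif searched.
Lcn2 (chr2:32387920-32387969, minus strand; a CEBP motif 216 bases before the RefSeq start): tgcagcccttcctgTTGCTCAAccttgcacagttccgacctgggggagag
Socs3 (chr11:117969492-117969541, minus strand; a STAT motif 154 bases before the RefSeq start): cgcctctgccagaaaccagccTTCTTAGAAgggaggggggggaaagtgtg
Srxn1 (chr2:152105404-152105503, plus strand; AP-1 motifs 102 and 45 bases before the start): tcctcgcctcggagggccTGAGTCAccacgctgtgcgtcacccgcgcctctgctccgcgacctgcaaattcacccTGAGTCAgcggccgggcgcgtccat
Trim63 (chr4:134314915-134315064, plus strand; a FoxO motif 194 and an E-box 72 bases before the start): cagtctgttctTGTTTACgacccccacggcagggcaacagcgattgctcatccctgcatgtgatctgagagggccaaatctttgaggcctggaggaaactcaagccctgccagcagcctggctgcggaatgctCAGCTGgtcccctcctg
Musk (chr4:58285872-58285921, plus strand; an E-box 68 bases before the start): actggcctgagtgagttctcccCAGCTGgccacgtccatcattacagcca
Bhlhe41 (chr6:145865546-145865595, minus strand; a clock E-box 153 bases before the RefSeq start): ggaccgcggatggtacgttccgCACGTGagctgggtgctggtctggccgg

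The motifs were searched on both strands over the whole window. The STAT motif TTCNNNGAA was in 9.37% of the genes that rose, 7.41% of those that fell, 8.21% of the 11415 tested genes with a window and 9.55% of all 26994 genes with one. In the same order, FoxO (GTAAACA) was in 3.89%, 3.17%, 3.29% and 4.05%, and CEBP (TTGCNNAA) in 11.2%, 15.1%, 10.4% and 12.2%. The E-box of myogenic factors, CAGCTG, was in 19.6%, 23.8%, 18.7% and 18.3%, and AP-1 (TGANTCA) in 8.65%, 5.56%, 6.78% and 8.98%. The share of STAT, FoxO, CEBP and AP-1 among the genes that rose thus lay above that of the tested genes and below that of all genes. The clock E-box CACGTG was in 15.6%, 9.52%, 11.1% and 8.09%, CRE (TGACGTCA) in 3.89%, 1.32%, 3.29% and 2.03%, and the metal response motif (TGCACNC or TGCGCNC) in 36.0%, 33.3%, 39.3% and 28.2%. These shares were not tested, and a match is only a run of letters.

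Genes of protein breakdown rose in part. Of 21 tested ubiquitin ligases of muscle, 5 rose and none fell (median log2 fold change 0.33, against 0.07 over all genes tested). Trim63, the ligase MuRF1 that marks sarcomeric proteins (ENSMUSG00000028834, chr4:134315120-134329629), read 86.6, 76.1, 107 and 95.6 FPKM at 0 d and 896, 902, 1142 and 1159 FPKM at 1 d (log2 fold change 3.47, SE 0.13, adjusted p = 3.55e-07). Its 1 d samples lay close to each other and far above 0 d. Fbxo31, Ube4b, Fbxo30 and Asb2 rose by log2 fold changes of 1.30, 1.11, 1.06 and 0.74. Fbxo32, the ligase Atrogin-1 often named with Trim63, did not pass the test, at 0.791, 0.807, 1.14 and 0.894 FPKM and 1.74, 1.92, 1.17 and 0.903 FPKM (log2 fold change 0.33, SE 0.14, adjusted p = 0.0899). Samples a, b and c lay above all 0 d samples and sample d did not. The gene held only 84 to 121 fragments a sample at 0 d and 104 to 206 at 1 d, a low level beside the 76.1 FPKM or more of Trim63, and shares exon bases with an antisense gene.

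Among 14 ubiquitin genes and deubiquitinases, 5 rose and 1 fell. Ubb, a polyubiquitin gene, read 273, 273, 286 and 270.3 FPKM and then 638, 602, 689 and 648 FPKM (log2 fold change 1.22, SE 0.07, adjusted p = 2.25e-06), with no overlap. Usp2, a deubiquitinase that is also a clock output gene, fell by 0.91 on the log2 scale. Of 31 proteasome subunits, 10 rose, none fell and 17 were called higher as deposited, with a median log2 fold change of 0.60, or 0.46 after median-ratio scaling. All 31 values were above 0 as deposited, from 0.18 to 1.32. Psmd11, a subunit of the regulatory lid, rose most, from 14.98, 13.3, 15.6 and 15.5 FPKM to 39.7, 36.3, 40.4 and 37.6 FPKM, with a log2 fold change of 1.32, SE 0.07, adjusted p = 1.48e-06. Psma5, Psma1 and Psmd4 followed at 0.98, 0.96 and 0.94. At 3 d Psmd11 was higher again than at 1 d (1 d minus 3 d -0.86, adjusted p = 0.000159).

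Of 27 autophagy genes 6 rose and none fell. Ulk1, the kinase that starts autophagosome formation, read 9.26, 10.6, 12.8 and 10.95 FPKM at 0 d, 41.2, 36.7, 38.5 and 45.9 FPKM at 1 d and 11.9, 9.74, 12.4 and 11.04 FPKM at 3 d (1 d minus 3 d 1.76, adjusted p = 5.82e-06). Gabarapl1 and Map1lc3b, which coat the autophagosome, and Sqstm1, the cargo receptor p62, rose by 1.22, 0.94 and 1.22. Of 20 lysosomal genes 5 rose, led by Npc1, a cholesterol exporter (1.71), and Ctsl, cathepsin L (1.43). None of 9 calpains was called in both limma fits, although 4 had an unadjusted p under 0.05 and limma-voom called 1 higher. Bax, which permeabilizes mitochondria, was the 1 gene of 25 in apoptosis that rose (0.76), where 5.40% of all genes tested rose. In that list 2 were called higher as deposited, 4 without sample b, 7 with TPM and 8 with limma-voom.

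Comparisons of 1 d with 3 d use the same 1 d samples as those of 1 d with 0 d, so the values are given side by side. Myog, the myogenic factor myogenin (ENSMUSG00000026459, chr1:134289989-134292548), read 1.61, 1.61, 2.59 and 2.06 FPKM at 0 d, 28.8, 20.7, 27.4 and 24.02 FPKM at 1 d and 165, 218, 236 and 241 FPKM at 3 d. The step from 0 d to 1 d had a log2 fold change of 3.15, SE 0.13, adjusted p = 6.86e-07, and 1 d lay below 3 d (-3.04, adjusted p = 3.72e-06). Myod1 and Myf6, related myogenic factors, rose by 1.71 and 1.63. Myod1 was at 40.8, 29.4, 25.5 and 19.4 FPKM in the 1 d samples, all above the 0 d maximum of 9.54 FPKM. Runx1, a transcription factor linked to denervated fibres, read 0.378, 0.401, 0.441 and 0.356 FPKM and then 2.82, 1.61, 1.71 and 1.88 FPKM (log2 fold change 1.09, SE 0.12, adjusted p = 0.000106). In the list of 18 myogenic factors and denervation regulators, 6 rose and none fell.

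The p53 and growth arrest list gave 9 of 18 that rose and 1, Gadd45b, that fell. Gadd45a (chr6:67035096-67037457), a stress protein that acts in fibre atrophy, read 2.28, 3.30, 6.28 and 3.93 FPKM and then 51.7, 57.3, 39.6 and 37.3 FPKM (log2 fold change 3.30, SE 0.23, adjusted p = 7.66e-06), and 195, 181, 209 and 208 FPKM at 3 d. Cdkn1a, the cell cycle inhibitor p21, read 2.83, 3.32, 3.58 and 3.08 FPKM and 37.6, 32.6, 35.4 and 34.9 FPKM (log2 fold change 3.10, SE 0.07, adjusted p = 2.69e-08); the 4 values of 1 d lay close together. Eda2r, a receptor of the TNF family and p53 target, rose by 2.78 and Btg2, an anti-proliferative factor, by 3.16. Gadd45b read 24.9, 24.7, 20.6 and 17.3 FPKM and 12.7, 15.6, 11.7 and 13.3 FPKM (log2 fold change -0.67, SE 0.12, adjusted p = 0.00257) and was not called after rescaling to TPM (log2 fold change -0.58).

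Junction genes were split. Of 15 tested, Musk and Chrnb1 rose and Ache, Colq, Ufsp1 and Chrne fell. Musk, the kinase that gathers acetylcholine receptors, read 8.34, 7.84, 12.02 and 10.8 FPKM and 24.4, 23.8, 32.3 and 29.1 FPKM (log2 fold change 1.41, SE 0.14, adjusted p = 6.91e-05). Chrnb1, the beta subunit of the receptor, read 10.7, 11.4, 12.5 and 10.9 FPKM and 23.7, 22.5, 19.96 and 18.3 FPKM (log2 fold change 0.83, SE 0.09, adjusted p = 9.72e-05). Chrna1, the alpha subunit, overlapped between the groups at 4.11, 3.02, 3.41 and 3.68 FPKM and 4.11, 4.95, 4.56 and 4.29 FPKM, with a log2 fold change of 0.27 as deposited and 0.15 after median-ratio scaling (adjusted p = 0.271). At 3 d it read 24.6, 38.5, 61.0 and 72.0 FPKM, above 1 d (-3.08, adjusted p = 7.88e-05). Chrng, the fetal gamma subunit, did not pass the filter and reached at most 0.0966 FPKM.

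Chrne, the adult epsilon subunit, read 6.72, 6.38, 8.30 and 9.06 FPKM and 4.46, 4.31, 4.81 and 3.80 FPKM (log2 fold change -0.68, SE 0.11, adjusted p = 0.00122). Ache, the acetylcholinesterase that clears the transmitter, read 6.11, 5.78, 5.77 and 6.12 FPKM and 1.63, 1.90, 1.60 and 1.55 FPKM (log2 fold change -1.38, SE 0.07, adjusted p = 1.63e-06). Colq, the collagen tail that anchors it, fell by 1.04 and Ufsp1, which lies beside Ache on the chromosome, by 0.85 on the log2 scale. None of the 6 overlapped between the groups, and 35.4% of all genes did not either.

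**Figure D2:**
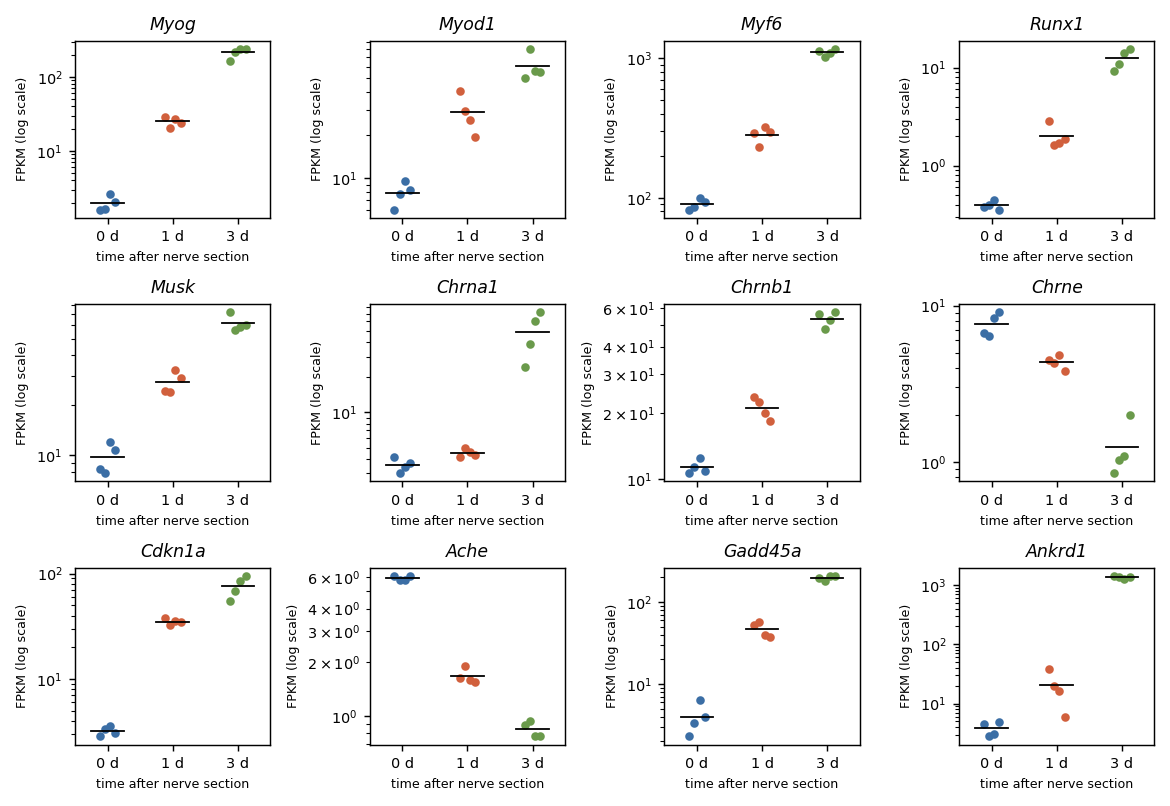
FPKM on log axes of 12 denervation-linked genes at 0 d, 1 d and 3 d, 1 point per sample, 4 samples a group, with group means as black lines. Myog, Musk and Gadd45a lay between their 0 d and 3 d levels at 1 d, while Chrna1 was at 4.11 to 4.95 FPKM at 1 d, close to 0 d, and Ankrd1 spread from 5.94 to 38.9 FPKM.

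Many genes of the acute phase, the IL-6 family and the chemokines rose, some with a wide spread between the 1 d samples, as in Hp and Ccl7, and some with a narrow one, as in Cntfr. Of 20 listed acute phase genes 13 were tested, of which 10 rose and none fell (median log2 fold change 1.94). Fga and Fgg were listed at 0, Fgb, Itih4 and Hpx lay below the filter, and Apcs was missing. The 1 d samples can meet the filter without those of 0 d, so the count and the median can lean toward genes high at 1 d. Besides Lcn2, Serpina3n and Mt1, Hp, the haemoglobin-binding haptoglobin, read 38.1, 17.7, 23.1 and 12.8 FPKM and 52.8, 62.6, 113 and 279 FPKM (log2 fold change 2.20, SE 0.50, adjusted p = 0.00724). Sample d held the highest value and sample a the lowest, which was above the highest 0 d sample. Mt2, the second metallothionein, was listed at 0 in all samples, and 432 of its 588 exon bases are shared with an antisense gene. Of 19 genes of the IL-6 family and STAT3 feedback, 9 rose and none fell. Cebpd and Cebpb, acute phase transcription factors, rose by 2.88 and 1.94. Socs3, the inhibitor induced by STAT3, read 2.24, 2.69, 2.02 and 1.94 FPKM and 16.9, 9.69, 9.60 and 15.98 FPKM (log2 fold change 2.09, SE 0.18, adjusted p = 2.97e-05). Cntfr, the receptor of ciliary neurotrophic factor, rose to 13.8, 16.1, 16.4 and 13.8 FPKM from 3.76, 2.89, 4.54 and 3.60 FPKM and read 1.38, 1.78, 1.37 and 1.15 FPKM at 3 d (1 d minus 3 d 2.73, adjusted p = 2.35e-06).

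Chemokines rose in 10 of 20 and none fell (median 0.92). Ccl7, which draws monocytes, read 0.729, 1.00, 1.39 and 0.472 FPKM and 19.7, 9.09, 16.8 and 70.8 FPKM (log2 fold change 3.60, SE 0.49, adjusted p = 0.000437), and Ccl2, which acts on the same receptor, read 2.22, 1.41, 1.44 and 1.61 FPKM and 15.5, 5.31, 11.7 and 54.7 FPKM (log2 fold change 2.64, SE 0.53, adjusted p = 0.00384). In both, sample d was the highest and sample b the lowest of 1 d, and sample b was still above every 0 d sample. Cxcl13 and Ccl6 rose by 2.81 and 2.74. Of 19 genes of the TNF family and NF-kappaB, 4 rose: Tnfrsf12a (2.20), the receptor Fn14 of TWEAK, Tnfrsf1a (1.09), Tnfrsf1b (0.75) and Relb (0.74). Without sample d, or without 0 d sample 1, chemokines called higher as deposited went from 10 to 8. The chemokine median was 0.55 without sample d and 1.76 with limma-voom. Without sample d Tnfrsf1b was not called (log2 fold change 0.56).

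The series asks about the NLRP3 inflammasome, the complex that activates caspase 1 and through it IL-1 beta. Of 17 tested members 4 rose, namely Il1b, Il1r1, Il1r2 and Casp4, and none fell. As deposited, 2 members were called without sample d, 2 without 0 d sample 1 and 5 without sample b. Il1b and Il1r2, a decoy receptor, had adjusted p of up to 0.0943 and 0.102 when single samples were left out, and were not called without any 1 of the 0 d samples. Il1b, the cytokine, had 0 to 3 fragments a sample at 0 d and 6 to 250 at 1 d, or 4.32, 0.204, 0.976 and 7.94 FPKM, with a log2 fold change of 1.62, SE 0.53, adjusted p = 0.0376. At so few fragments the fold change depends on the pseudocount, and with limma-voom on fragments its adjusted p was 0.0809. Il1r1, the receptor, read 2.23, 2.15, 2.54 and 2.74 FPKM and 6.62, 3.47, 5.67 and 7.03 FPKM (log2 fold change 0.94, SE 0.17, adjusted p = 0.00215). Nlrp3, the sensor, read 0.0640, 0.0165, 0.0484 and 0.124 FPKM and 0.608, 0.320, 0.321 and 1.02 FPKM, with no overlap, and had a log2 fold change of 0.54, SE 0.13, adjusted p = 0.00942, which passed on p and not on the 1.5-fold limit. Without sample b or without sample c it was called, both at 0.61, and it was called with pseudocounts of 0.5 and 0.1, with limma-voom, with TPM and with totals that left out mitochondrial genes. It held 1 to 8 fragments a sample at 0 d and 20 to 68 at 1 d. Casp1 (0.30, adjusted p = 0.137), Pycard (0.14, adjusted p = 0.305) and Gsdmd (0.27, adjusted p = 0.117) did not pass the test, and Pycard shares exon bases with an antisense gene. Il18 read 1.95, 1.88, 1.91 and 1.53 FPKM and 1.23, 1.198, 1.63 and 3.82 FPKM (adjusted p = 0.993), and at 1 d sample d alone stood above 0 d.

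Some markers of neutrophils and of monocytes and macrophages were higher at 1 d. Of 12 neutrophil markers, S100a9, S100a8, Csf3r, Retnlg and Cxcr2 passed the filter, which the 1 d samples can meet without those of 0 d, and were called higher, Cxcr2 not without 1 d sample a (adjusted p = 0.0513). Camp was listed at 0, and Ly6g, Mpo, Elane, Ltf, Ngp and Mmp8 lay below the filter. The 12 together summed to 1.33 to 2.33 FPKM at 0 d and 9.19 to 98.4 FPKM at 1 d. S100a8 and S100a9, the calprotectin subunits of neutrophils, read 9.94, 1.12, 4.11 and 21.3 FPKM and 31.6, 4.61, 19.7 and 60.6 FPKM at 1 d, and sample d led and sample b trailed in both. The 14 monocyte and macrophage markers summed to 159 to 231 FPKM at 0 d and 254 to 410 FPKM at 1 d, and 6 rose, among them Fcgr1 (1.71), Cd68 (1.35), Lyve1 (1.03) and Mrc1 (0.85). Without sample d, 4 of these markers were called higher as deposited, against 9 with it. No T or B cell marker (4 tested) and no mast cell marker (6 tested) was called in both limma fits, with 2 and 1 at an unadjusted p under 0.05 and 2 and 0 called lower by limma-voom. The part of these cells in the chemokine and acute phase values was not tested.

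**Figure D3:**
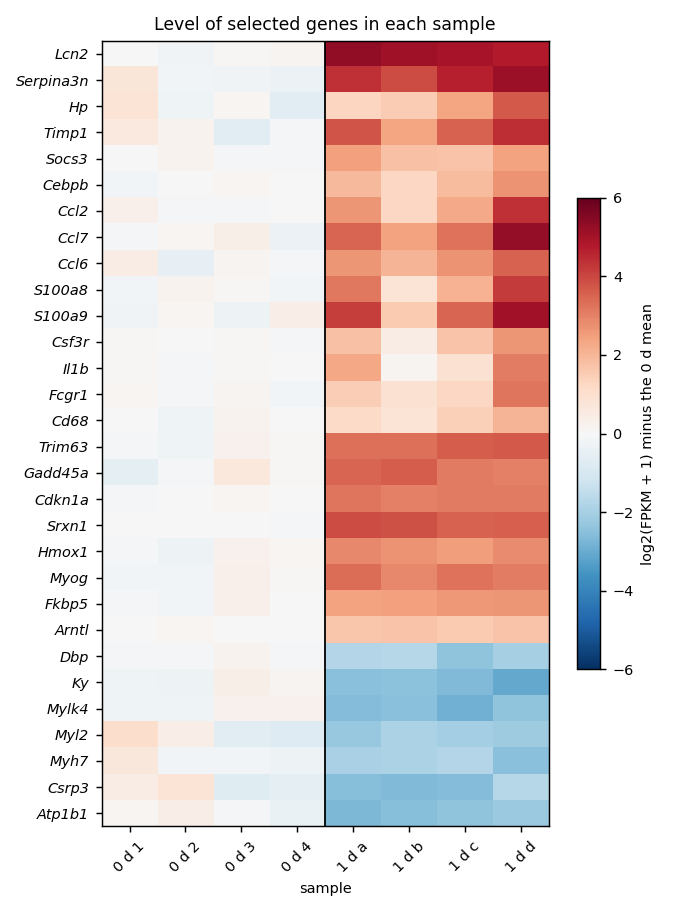
Difference in log2(FPKM + 1) from the 0 d mean for 30 selected genes (rows) in the 8 samples (columns), from blue (lower) to red (higher). Immune genes such as Ccl7, S100a9 and Il1b were reddest in sample d and palest in sample b of 1 d, while Trim63, Cdkn1a, Srxn1 and Fkbp5 had nearly the same shade in all 4.

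Many stress genes rose, most of those named below to like levels in the 4 samples of 1 d. In the integrated stress response, which slows translation and induces ATF4, 13 of 24 genes rose and none fell (median 0.76). Ppp1r15a, the phosphatase subunit GADD34 that ends the response, read 9.502, 9.56, 10.5 and 9.01 FPKM and 62.1, 63.3, 64.2 and 66.2 FPKM (log2 fold change 2.61, SE 0.06, adjusted p = 2.69e-08), and the 4 samples of 1 d were nearly level. Atf4 itself read 75.6, 70.8, 74.2 and 69.8 FPKM and 188, 195, 196 and 213 FPKM (log2 fold change 1.43, SE 0.06, adjusted p = 6.94e-07), and its target Trib3 rose by 1.29 and read 1.38, 1.29, 1.21 and 0.837 FPKM at 3 d. Among 22 genes of the endoplasmic reticulum chaperones 5 rose and 11 were called as deposited (7 without sample d), with Xbp1 at 1.08 and Hspa5, the chaperone BiP, at 0.81. Of 28 heat shock genes 8 rose and 2 fell. Hspb1, the small chaperone HSP27, read 154, 147, 145 and 126 FPKM and 452, 449, 484 and 445 FPKM (log2 fold change 1.67, SE 0.08, adjusted p = 7.75e-07), whereas the muscle small chaperones Hspb3 and Hspb2 fell by 0.82 and 0.69 on the log2 scale.

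Antioxidant genes under Nrf2 rose in 10 of 22 and none fell. Hmox1, which degrades haem, read 7.26, 6.05, 9.20 and 8.35 FPKM and 63.0, 54.3, 48.6 and 61.0 FPKM (log2 fold change 2.73, SE 0.12, adjusted p = 7.75e-07). Gclm, a subunit of the enzyme that makes glutathione, rose by 1.91 and Osgin1, an oxidative stress gene, by 1.97. Srxn1, described above, read 67.6, 54.9, 75.1 and 73.9 FPKM at 3 d, below 1 d (1 d minus 3 d 1.32, adjusted p = 9.29e-05). Of 26 immediate early genes 13 rose and none fell. Junb read 6.97, 6.81, 7.97 and 7.61 FPKM and 94.1, 61.0, 64.7 and 85.2 FPKM (log2 fold change 3.19, SE 0.13, adjusted p = 6.86e-07), Atf3, a stress factor of the ATF family, rose by 2.82, and Nr4a3, an orphan nuclear receptor, read 0.575, 0.727, 0.908 and 1.12 FPKM, 12.5, 7.81, 9.25 and 8.31 FPKM and, at 3 d, 0.883, 0.649, 0.441 and 0.851 FPKM. All 1 d samples of Nr4a3 stood above all 0 d and 3 d samples (1 d minus 3 d 2.61, adjusted p = 8.5e-06).

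Of 21 genes that respond to glucocorticoid hormones 16 rose and none fell (median 1.40). Several of the 16 are counted in other lists too. Among them are Cdkn1a (growth arrest), Cebpd (IL-6 family), Ddit4 (insulin and mTOR), Per1 (clock), and Angptl4 and Pdk4 (fatty acids). Fkbp5, a chaperone that limits the glucocorticoid receptor, read 2.76, 2.65, 4.05 and 3.09 FPKM and 21.2, 21.4, 23.6 and 24.5 FPKM (log2 fold change 2.53, SE 0.11, adjusted p = 6.94e-07). Ddit4, the mTOR inhibitor REDD1, read 6.47, 6.49, 7.50 and 7.61 FPKM and 36.9, 38.5, 81.9 and 100.1 FPKM (log2 fold change 2.90, SE 0.30, adjusted p = 7.86e-05), with samples c and d above a and b. Of 25 genes of insulin, Akt, mTOR and FoxO signalling 9 rose and 1 fell. Eif4ebp1, the translation repressor 4E-BP1, rose by 2.15, Irs2, an insulin receptor substrate, by 1.497 and Sesn1, an mTORC1 inhibitor, by 1.40, and Foxo6 fell by 1.17.

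Clock genes changed in both directions, with 6 of 20 that rose and 5 that fell. Arntl, the activator BMAL1, read 1.58, 1.89, 1.58 and 1.61 FPKM and 7.53, 7.71, 6.88 and 7.66 FPKM (log2 fold change 1.66, SE 0.07, adjusted p = 6.97e-07). Nfil3, a repressor of clock output, read 3.78, 3.04, 5.30 and 4.29 FPKM and 35.4, 24.7, 44.9 and 43.3 FPKM (log2 fold change 2.88, SE 0.19, adjusted p = 6e-06). Dbp, the output activator that binds the same sites, read 36.9, 36.8, 45.05 and 37.5 FPKM and 10.8, 11.3, 6.59 and 8.88 FPKM (log2 fold change -1.97, SE 0.14, adjusted p = 1.1e-05). Bhlhe41, a repressor of the clock whose promoter is shown above, read 7.00, 7.73, 8.18 and 7.36 FPKM and 2.09, 2.04, 2.03 and 2.34 FPKM (log2 fold change -1.45, SE 0.07, adjusted p = 1.36e-06). Per1 and Cry2 rose by 1.65 and 1.27, and Per3 fell by 0.86 on the log2 scale. None of the 7 overlapped between the groups, as was the case for 35.4% of all genes tested. Because the hour of collection is not given, hour and denervation cannot be told apart for these genes, nor for the glucocorticoid, stress and other genes compared here. The methods also describe an anaesthetic, an analgesic and skin surgery. Since the state of the 0 d mice is unclear, effects of these cannot be told apart from those of nerve loss either.

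Of 16 slow and cardiac contractile genes 12 fell and none rose (median -1.08). Myl2, the slow regulatory light chain, read 293, 188, 87.3 and 82.8 FPKM and 28.6, 37.7, 33.6 and 31.7 FPKM (log2 fold change -2.08, SE 0.36, adjusted p = 0.0017), and Myh7, the slow myosin heavy chain, read 47.6, 26.1, 26.0 and 23.3 FPKM and 7.00, 7.21, 8.06 and 4.31 FPKM (log2 fold change -2.02, SE 0.23, adjusted p = 0.000151). Tnnc1 and Tnni1, slow troponins, fell by 1.96 and 1.85 on the log2 scale. In all 4 genes 0 d sample 1 was the highest of the 8 and no 1 d sample reached the lowest 0 d sample. Without 0 d sample 1, 11 of the 16 were called lower, with a median of -0.93. Of 18 genes listed as fast contractile 5 fell and none rose, namely Ky, Mylk4, Smco1, Myh2 and Casq1. Myh2 alone of the 5 encodes a myosin, and the list also holds other muscle genes, such as the peptidase Ky and the kinase Mylk4. Smco1, a single-pass membrane protein of muscle, read 48.0, 51.5, 45.8 and 43.7 FPKM and 9.59, 7.84, 7.48 and 8.81 FPKM (log2 fold change -2.36, SE 0.08, adjusted p = 3.06e-07), and Myh2, the type 2A myosin, fell by 1.41. The list's median of -0.39 kept its sign in the scalings for which list medians were taken, at -0.54 with median ratios, -0.28 with TPM and -0.14 with quantiles.

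**Figure D4:**
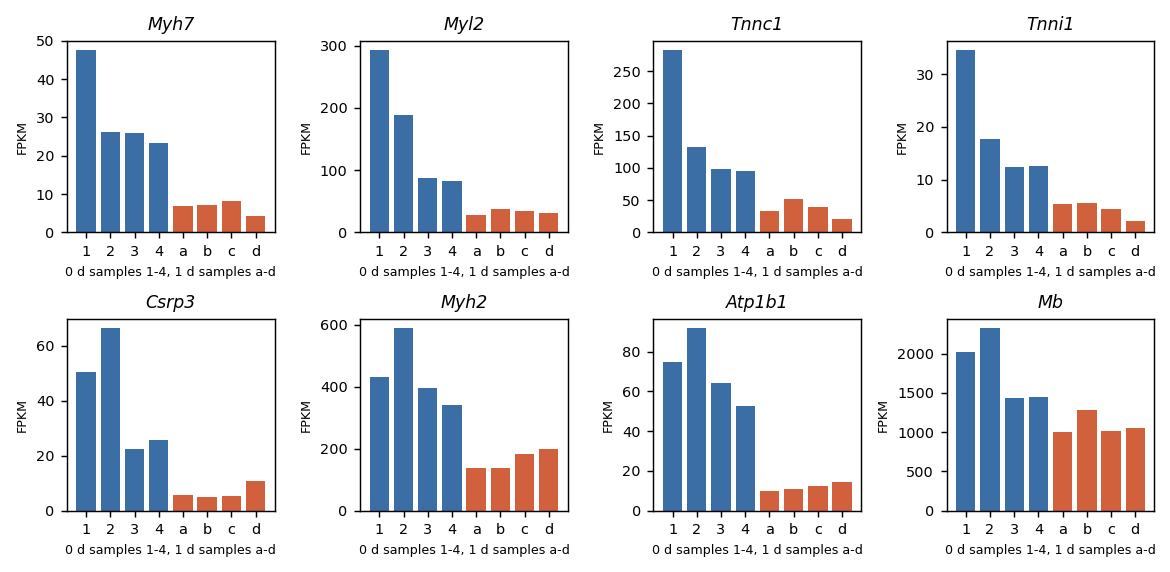
FPKM (bars from 0) in each of the 4 samples of 0 d (blue, 1 to 4) and the 4 of 1 d (orange, a to d) for slow fibre and related genes. Myl2, Tnnc1, Tnni1 and Myh7 were highest in 0 d sample 1, and all 1 d bars are below all 0 d bars in the 8 panels.

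Genes of the triad and of membrane excitability fell in 8 of 27 and rose in 1, and 13 were called lower after median-ratio scaling (list median -0.59, against -0.45 as deposited). Besides Atp1b1, Kcnc1, a potassium channel, read 6.30, 8.67, 7.30 and 6.49 FPKM and 1.41, 1.06, 1.17 and 1.19 FPKM (log2 fold change -1.89, SE 0.10, adjusted p = 2.03e-06). Clcn1, the chloride channel that steadies the resting fibre, read 35.2, 40.0, 44.5 and 41.0 FPKM and 14.7, 15.9, 14.4 and 15.7 FPKM (log2 fold change -1.34, SE 0.08, adjusted p = 2.51e-06). Sypl2, mitsugumin 29 of the triad, and Dhrs7c, an enzyme of the sarcoplasmic reticulum, fell by 1.13 and 1.09 on the log2 scale. Dhrs7c was lower again at 3 d, at 4.63, 3.85, 2.94 and 3.44 FPKM (1 d minus 3 d 3.33, adjusted p = 1.88e-06). Sln, sarcolipin, did not pass the test at 1 d (5.81, 3.81, 2.04 and 2.15 FPKM and 2.19, 1.58, 2.26 and 1.42 FPKM, adjusted p = 0.1), though without 0 d sample 3 it was called lower (adjusted p = 0.0489). Of 18 developmental and stretch-linked genes 3 rose and Csrp3 fell. Ankrd1, a titin-binding stretch factor, read 4.59, 2.79, 3.02 and 4.95 FPKM and 38.9, 19.9, 16.3 and 5.94 FPKM (log2 fold change 1.91, SE 0.44, adjusted p = 0.00773), with sample d just above the 0 d maximum, and Flnc, filamin C, rose by 1.39.

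Of 28 genes of glycolysis and glycogen 2 rose and 4 fell, while 9 were called lower after median-ratio scaling and 7 with quantile normalization. Over all genes tested 5.40% rose and 3.15% fell. Ldhb, the heart-type lactate dehydrogenase, read 203, 210.2, 171 and 169 FPKM and 64.1, 95.6, 88.3 and 78.8 FPKM (log2 fold change -1.202, SE 0.13, adjusted p = 9.52e-05), and Pgam2, the muscle phosphoglycerate mutase, went from 1632, 1686, 1599 and 1314 FPKM to 854, 850.3, 877 and 795 FPKM (log2 fold change -0.88, SE 0.10, adjusted p = 0.000149). Gys1, glycogen synthase, fell by 0.89, while Pfkfb4, a regulator of glycolysis, rose by 1.23. Gapdh, often used as a reference, did not pass the fold limit, at 194, 194, 199.97 and 198 FPKM and 170.3, 175, 167 and 142 FPKM (log2 fold change -0.27, SE 0.07, adjusted p = 0.019). Of 28 genes of fatty acid oxidation and uptake 4 rose and none fell. Acot2, a mitochondrial acyl-CoA thioesterase, read 9.72, 9.06, 10.3 and 8.20 FPKM and 81.4, 77.4, 90.5 and 89.0 FPKM (log2 fold change 3.05, SE 0.08, adjusted p = 3.47e-08), and its near copy Acot1, whose reads may be split with it, rose by 2.17. Pdk4, which shuts the pyruvate dehydrogenase complex, rose by 1.89 and Angptl4, a lipoprotein lipase inhibitor, by 1.98.

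Of 19 regulators in the PGC-1, ERR and PPAR families 6 fell and 2 rose. Perm1, a muscle regulator downstream of PGC-1, read 46.7, 55.7, 55.2 and 47.5 FPKM and 11.5, 10.05, 8.27 and 8.86 FPKM (log2 fold change -2.30, SE 0.10, adjusted p = 7.83e-07). Esrrg, an oestrogen-related receptor, and Prkag3, the AMPK gamma 3 subunit, fell by 1.57 and 1.67. Ppargc1b fell by 1.15, and Ppargc1a overlapped between the groups at 5.70, 7.00, 8.89 and 7.44 FPKM and 13.001, 5.78, 9.61 and 10.95 FPKM (adjusted p = 0.216). Of 53 nuclear respiratory chain genes, Cox7a1 alone fell (-0.60), and it was not called without 0 d sample 1 or 2 or 1 d sample a or d, at -0.54 to -0.58, nor with TPM or quantile normalization. After median-ratio scaling 15 were called lower, and the list's median was -0.38 as deposited and -0.53 with that scaling. The list's lowest value was -0.60 and its highest 0.02, and as deposited 47 of the 53 had an unadjusted p under 0.05. The 13 protein genes of the mitochondrial genome took 16.7% ± 1.74 (SD, n = 4) of the fragments at 0 d and 13.7% ± 2.13 (SD, n = 4) at 1 d. By an exact permutation test, two-sided, p was 0.0857, and 0.0286 is the smallest that 4 against 4 samples allow.

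Of 24 ribosome biogenesis and nucleolar genes 11 rose, none fell and all 24 values were above 0 as deposited (median 0.69). Myc, a transcription factor that drives ribosome production, read 1.84, 1.26, 2.31 and 2.09 FPKM and 10.2, 10.5, 11.97 and 13.9 FPKM (log2 fold change 2.14, SE 0.13, adjusted p = 4.33e-06). Gnl3, Ddx21 and Rrs1, nucleolar proteins, rose by 1.52, 1.22 and 1.17. Of 75 cytosolic ribosomal protein genes 0 were called either way by limma or limma-voom, with 5 at an unadjusted p under 0.05 as deposited, 21 after median-ratio scaling (median -0.15) and 17 with TPM (median 0.11). As deposited the log2 fold changes ran from -0.21 to 0.33. Of 29 translation factors 5 rose, led by Eif4a1 (1.202), and Eif4e, the cap-binding protein, fell by 0.67, a call that was lost with TPM (-0.58). In the polyamine pathway Odc1, its first enzyme, read 51.5, 50.4, 56.4 and 55.1 FPKM and 115, 102, 116 and 108 FPKM (log2 fold change 1.03, SE 0.06, adjusted p = 4.39e-06), and Smox, spermine oxidase, read 90.7, 87.4, 122 and 114 FPKM and 47.2, 44.6, 38.9 and 35.4 FPKM (log2 fold change -1.29, SE 0.13, adjusted p = 6.04e-05). Amd1 and its near copy Amd2 fell by 1.10 and 1.04, with reads that may be split between them.

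In the TGF-beta family 3 of 34 genes rose and 3 fell, where 5.40% of all genes tested rose and 3.15% fell. Gdf5, a BMP ligand, had 0 to 4 fragments a sample at 0 d and 74 to 168 at 1 d, at 2.25, 2.52, 4.49 and 3.26 FPKM (log2 fold change 1.95, SE 0.15, adjusted p = 1.42e-05). Nog, a BMP inhibitor, rose by 1.00. Of the activin receptors, Acvr2a rose by 0.80 and Acvr2b fell by 0.65, from 2.91, 2.63, 2.99 and 2.55 FPKM to 1.31, 1.42, 1.31 and 1.54 FPKM. Gdf11 and Tgfb2, ligands of the family, fell by 0.65 and 0.69, and Gdf11 was not called without 0 d sample 4 (-0.56). In the IGF axis Igfbp5, an IGF-binding protein, fell from 123, 103, 191 and 165 FPKM to 48.9, 53.3, 50.1 and 56.4 FPKM (log2 fold change -1.42, SE 0.17, adjusted p = 0.000207), and Htra1, a protease that cleaves such proteins, rose by 1.28.

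Matrix remodelling genes rose in 11 of 36 and Loxl2, a lysyl oxidase family member, alone fell, while 4 of 18 collagen genes (Col15a1, Col6a2, Col1a1 and Col6a1) fell and none rose. Collagen genes called lower were 2 without sample b, without 0 d sample 1 or with TPM, Col1a1 and Col6a1 having lost the call in each. Both also lost it without sample a and with all 32 samples, and Col6a1 without 0 d sample 3 or 4. Loxl2 was not called without sample b, without 0 d sample 1 or 3, with TPM or with all 32 samples. Without sample d 3 matrix remodelling genes were called lower. Timp1, an inhibitor of matrix proteases, read 2.12, 1.43, 0.295 and 0.922 FPKM and 27.7, 9.88, 23.1 and 43.9 FPKM (log2 fold change 3.53, SE 0.40, adjusted p = 0.000155), and Mmp3, a matrix protease, rose by 2.59. Col15a1, of the fibre's basement membrane, read 12.98, 12.4, 13.7 and 13.97 FPKM and 6.36, 5.89, 6.18 and 7.12 FPKM (log2 fold change -0.95, SE 0.07, adjusted p = 1.21e-05). Among tenocyte markers Kera and Tnmd, 2 of the 7 tested, fell by 1.48 and 1.12. The marker lists of endothelium (10 tested), pericytes (8) and red cells (5) had 1, 0 and 0 genes called in both limma fits, and Cldn5 of endothelium was the gene that rose (0.82). Unadjusted p was under 0.05 for 5 pericyte and 0 red cell markers, of which limma-voom called 1 and 0.

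Of 14 tested myelin genes of Schwann cells, Gjb1, connexin 32, rose from 0.874, 0.746, 0.499 and 0.332 FPKM to 5.86, 4.95, 4.399 and 7.02 FPKM (log2 fold change 2.02, SE 0.15, adjusted p = 1.01e-05) and 4 fell. Of the 14, 9 were called lower without sample d, 2 without sample b and 1 without 0 d sample 1. The summed level of the list was 146 to 306 FPKM at 0 d and 54.1 to 221 FPKM at 1 d. Gdnf, a growth factor for motor neurons, rose by 0.91, Jun, the factor that drives Schwann cell repair, by 1.03, and Ntf5, neurotrophin 4, which muscle supplies to its nerve, fell from 2.03, 2.02, 1.70 and 1.59 FPKM to 0.557, 0.514, 0.632 and 0.274 FPKM (log2 fold change -0.93, SE 0.10, adjusted p = 9.89e-05).

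**Figure D5:**
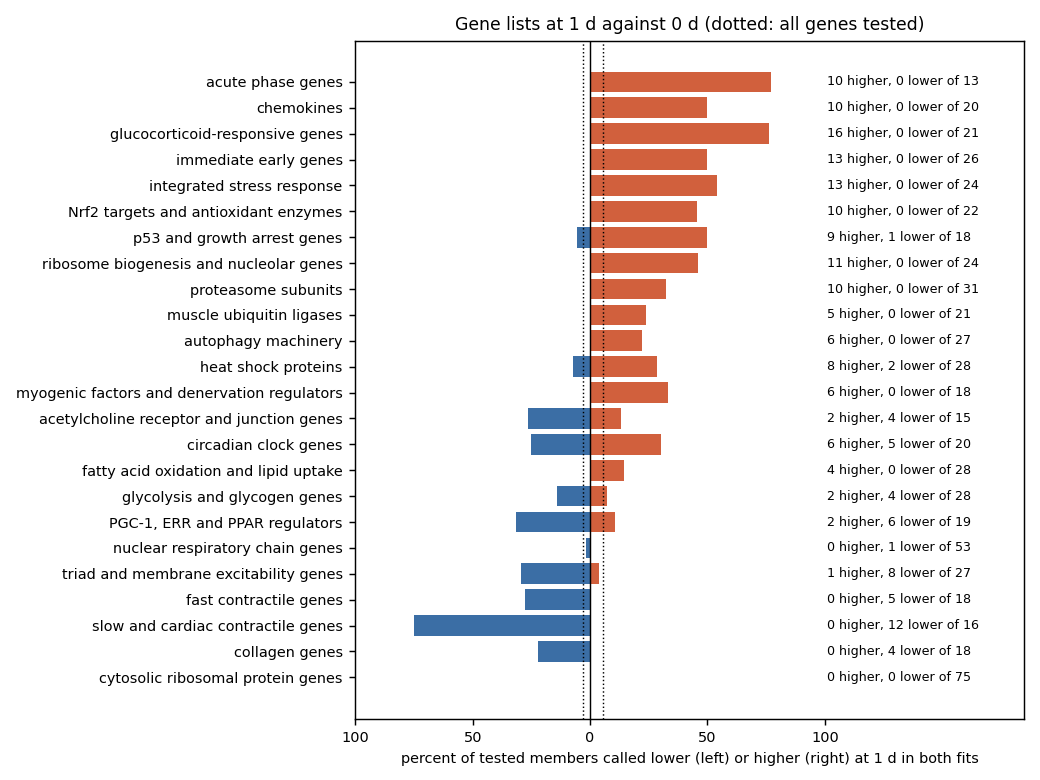
Share of tested members of 24 gene lists called higher (orange, right) or lower (blue, left) at 1 d in both fits, with the counts at the right edge and dotted lines at the shares of all genes tested (5.40% higher, 3.15% lower). Acute phase and glucocorticoid-responsive lists reach furthest to the right, and the slow contractile list reaches furthest to the left.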

How the data were processed

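RNA sequencing of 32 mouse GAS muscles at 8 time points was deposited by the authors as 1 table of FPKM values per gene, and the 4 columns of 0 d and the 4 of 1 d were compared here. Per the labels, the submitters' processing notes name CASAVA, HISAT2 2.1.0, DESeq2 and the build GRCm38. The table holds no counts, so the count test the notes name was not run. FPKM steps gave whole fragments for 99.3 to 99.4% of values under 200 fragments (tolerance 0.05), and totals of 14199902 to 16511953 fragments. Fragments without molecular identifiers are not independent molecules.

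Genes with at least 0.1 FPKM in at least 4 of the 8 columns were fitted with limma 3.58.1 (R 4.3.3) on log2(FPKM + 1), with a variance trend and only these 8 samples. Calls needed 1.5-fold and p under 0.05 after Benjamini-Hochberg adjustment, and were made again after median-ratio scaling. On simulated data for 1 d against 0 d (17344 genes, 200 changed by 1 on the log2 scale), 186 were recovered with 0 false calls. The noise was independent and normal, with the spread of 0 d in both groups. Only genes with a 0 d mean above 1 on that scale were changed. The wider spread of many genes at 1 d and genes of low level were thus not covered. The naming rule covered the 12 largest non-overlapping rises and falls, up to 4 each way in each of 59 lists, a set always named, and every called member of a list where 5 or fewer were called one way, 210 genes in all, and the text names most of them. A few genes are not reported here. The members and lists were chosen with earlier results of these data known, and some genes belong to several lists, so counts of lists are not separate results. Alternatives were other pseudocounts (0.1 and 0.5), filters, scalings, limma-voom, all 32 samples and leaving out each sample. Gene positions are those of GENCODE mouse release 21 (GRCm38).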

Additional observations from a re-analysis of the deposited data

Results flagged for a closer look

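Of 338 groups of 4 samples checked, 22 had 1 sample whose gap to the nearest other was a large part of the group's range by Dixon's criterion, where chance alone is taken to give about 1 in 20. At 0 d the highest sample stood apart for Serpina3n (6.76 FPKM, others 2.75 to 3.28), Myh7 (47.6, others 23.3 to 26.1), Dbp (45.045, others 36.8 to 37.5), Arntl (1.89), Sqstm1 (225), Ubb (286), Eif4ebp1 (21.7), Tgfb2 (6.04) and Pycard (0.290). The lowest 0 d sample stood apart for Srxn1 (11.1 FPKM), Htra1 (9.68, others 13.3 to 14.02) and Il18 (1.53).

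At 1 d the highest sample stood apart for Fcgr1 (13.03 FPKM, others 1.88 to 3.32), Cxcl13 (24.96, others 9.61 to 10.95), Il18 (3.82, others 1.198 to 1.63), Casp1 (1.99, others 1.12 to 1.14), Gsdmd (5.38, others 3.29 to 3.60) and Gdnf (1.63, others 1.17 to 1.19). All 6 were in sample d, which was also the highest for S100a9 and Ccl7. The same held for Csrp3 (10.9 FPKM, others 5.04 to 5.56), also in sample d, for Nog (7.56) in sample a and for Hspb1 (484) in sample c. The mitochondrial share of fragments was lowest in 1 sample of 0 d (14.1%, others 17.1 to 17.7%). The causes were not tested.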

How the results depend on the processing

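The 1394 genes higher and 546 lower became 2680 and 630 after rescaling to TPM, 2469 and 1132 with limma-voom on recovered fragments, 2336 and 1033 with a pseudocount of 0.1, 895 and 817 with quantile normalization, and 936 and 838 with median ratios. They were 4271 and 1865 with no fold threshold and 394 and 193 at 2-fold. Leaving out single samples gave 1245 to 1584 higher and 539 to 620 lower. Between 1 d and 3 d, 807 genes were higher and 1364 lower at 1 d, with 777 to 853 and 1209 to 1817 when single samples were left out. The difference in the mitochondrial share of fragments, -3.00 percentage points, ranged from -2.34 to -3.91 with single samples left out. Of the 210 genes covered by the naming rule, 200 were called and 176 kept their call in every alternative. Of the other 24, 19 lost it when a single sample was left out. With single samples left out, the log2 fold changes of the named genes ran from -2.76 (Ky) to 5.12 (Lcn2). Il18 alone changed sign, from a log2 fold change of -0.00 to 0.070 with TPM, 0.02 without 0 d sample 1, 0.0090 without sample 2, 0.013 without sample 3, and 0.11, 0.11 and 0.03 without 1 d sample a, b or c, with no call in any of them. The causes were not tested. Counts of list members without 1 d sample d, without 1 d sample b and without 0 d sample 1 were chosen after seeing the data. No paired analysis was possible because the 0 d columns carry numbers and the 1 d columns letters, so the groups share no replicate label. Depth limits genes such as Nlrp3 and Il1b, which had few fragments at 0 d.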

Other observations

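The counts of the lists in this section stand beside shares of 5.40% that rose and 3.15% that fell over all genes tested. Of 22 interferon-stimulated genes Oasl2 alone rose, and it was not called without any 1 of the 0 d samples or without 1 d sample c or d, with adjusted p of up to 0.0845. As deposited 3 of the list were called higher, against 6 with limma-voom or TPM and 1 without sample d. Without 0 d sample 1 limma called none of them, with 5 at an unadjusted p under 0.05. Of 15 complement genes 3 rose, namely C5ar1, C3 and C1qb, while 6 were called as deposited, 4 without sample d, 7 with limma-voom and 9 with TPM, and the list's median was 0.48. Of 15 satellite cell and fusion genes Sdc4 alone rose, and of 24 cell cycle genes none rose in both limma fits and Aurka fell, while Mcm4, Mcm7 and Pcna were called higher as deposited and limma-voom called 4 higher and 2 lower. Of 21 TCA cycle enzymes Idh2 alone fell, with 4 called lower after median-ratio scaling (median -0.36, against -0.21 as deposited) and 2 without 1 d sample b. As deposited 15 of the 21 had an unadjusted p under 0.05. Of 13 mitochondrial genome genes mt-Co3 alone was called lower, with all 13 log2 fold changes below 0 as deposited (-0.83 to -0.18). The call of mt-Co3 was lost without any single sample other than 1 d sample b, with adjusted p of up to 0.125, and with TPM, quantile normalization, no filter or no variance trend. Of 10 fibro-adipogenic markers Col1a1 alone fell, a call that was lost without 0 d sample 1, without 1 d sample a or b, with TPM and with all 32 samples (adjusted p of up to 0.278), and of 8 adipocyte markers Plin4 rose. The summed level of the adipocyte markers was 1286 to 1358 FPKM at 0 d and 804 to 1174 FPKM at 1 d.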
